A study of Homo sapiens with 3 samples.

Results

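The genes described here are the keratins, taken as every symbol of the deposited expression table made of KRT, a number and at most 1 further letter. Symbols ending in P, which mark pseudogenes, and keratin-associated proteins were left out. The rule found 51 genes among 29689, 25 of type I and 26 of type II. KRT26, KRT27, KRT28 and KRT35 were not analysed here. The libraries came from xenograft tumors of SUM-149, a human triple-negative breast cancer (TNBC) line, whose cells were injected with Matrigel into the mammary fat pads of female Nu/Nu mice. There were 3 RNAseq libraries, from a tumor given vehicle, from a tumor given the CDK2 inhibitor dinaciclib for 10 days (CDK2i), and from a tumor given the EZH2 inhibitor EPZ6438 for 10 days (EZH2i). The label of the vehicle tumor gives no time, and the study's account of its SUM-149 xenografts names GSK343 where the label names EPZ6438, so the EZH2 inhibitor is called EZH2i throughout. Each treatment had 1 library, so no value has a replicate, no p-value was computed, and an effect of a drug and a difference between single tumors cannot be told apart. All 3 tumors came from the same cell line, and ages and doses are not given in the labels.

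Keratins are the intermediate filament proteins of epithelial cells, and each filament needs a type I and a type II partner. Which pair a cell makes follows its place in the tissue: KRT5 and KRT14 in the basal layer of skin and in the basal cells of the breast, KRT1 and KRT10 in the layers above, KRT8 and KRT18 in simple epithelia such as the luminal cells of the breast. KRT6, KRT16 and KRT17 are held to be stress keratins, which skin makes after wounding, and the hair keratins form the shaft and the sheaths of the hair. For this reason keratins are used to place a breast carcinoma on the basal or luminal side.

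Levels are given as FPKM, which the authors deposited as log2 values and which are scaled to gene length and library size, so that levels may be compared between genes. The steps of single fragments in low values gave depths of 16.8 M fragments (M, 1000000) in the vehicle library, 19.1 M under CDK2i and 17.5 M under EZH2i. A change is a difference of log2 FPKM between 2 tumors. A gene rose or fell here when it changed by a fold of more than 2 and exceeded log2 FPKM 3 in at least 1 of the tumors compared, the fold and expression limits the study states. Expressed means a mean log2 FPKM above 1 with no library listed at 0, which held for 25 keratins and 11109 genes. The median change of these genes was −0.11 under CDK2i and 0.19 under EZH2i. As a measure of the scatter at a given level, the central 95% of changes among the 200 expressed genes nearest in mean log2 FPKM is given as the neighbor range. This range holds drug effects as well as noise and is not a replicate error. Counting intervals are exact 95% binomial intervals on the fragments recovered from FPKM and exon length, and cover counting error only, since PCR copies are not independent molecules.

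Epithelial markers were looked at first, since the tumors came from a carcinoma line. All 8 epithelial markers looked at and all 7 basal-like markers, among them TP63 and ITGB4, were above log2 FPKM 3 in each library. Of the epithelial markers KRT5, KRT8, KRT14 and KRT18 are themselves keratins described here, while EPCAM, CDH1, CLDN4 and ESRP1 are not. Markers of cells of the host were read on a human reference genome. There COL1A1 and ENG exceeded log2 FPKM 3 in each library and FABP4 in vehicle and CDK2i. LUM exceeded it in CDK2i alone, and CD14 only just, in vehicle alone. How mouse reads were handled is not given in the sources used here. In the order vehicle, CDK2i and EZH2i, the 8 fibroblast markers summed to 25.04, 39.2 and 31.1 FPKM, and the 5 endothelial markers in the table to 11.98, 11.9 and 12.5 FPKM. The 4 adipocyte markers in the table summed to 33.2, 19.3 and 3.54 FPKM, nearly all of it FABP4, while ADIPOQ was listed at 0 in the vehicle and EZH2i tumors. The 6 macrophage markers summed to 8.28, 8.155 and 3.585 FPKM, and the 6 skeletal muscle markers to 4.66, 5.15 and 2.40 FPKM. The 3 melanocyte markers summed to 1.53, 1.915 and 1.25 FPKM, and the 4 Merkel cell markers to 0.778, 0.1025 and 0.686 FPKM. The macrophage sum was mostly CD14 and the muscle sum mostly MB. The adipocyte, macrophage, muscle and melanocyte sums were thus lowest in EZH2i, the tumor in which several keratins were also lowest. Single members went the other way, as CIDEC, CSF1R, LYZ, MYH1 and MLANA were highest in EZH2i, all at low levels. The part of such cells in the keratin values was not tested.

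Keratins took 2.47% of all summed FPKM in vehicle, 5.70% under CDK2i and 2.355% under EZH2i. Without ribosomal protein and mitochondrially encoded genes in the sum, the shares were 3.925%, 7.383% and 3.245% in the same order. KRT14 was the most abundant keratin of each library and KRT5 came next. Among all genes KRT14 stood at rank 21 in vehicle, 5 in CDK2i and 14 in EZH2i, and KRT5 at rank 26, 7 and 18. In CDK2i the high keratin share was made mostly of basal and stress keratins, and in EZH2i the epidermal suprabasal keratins held the share furthest below that in vehicle. The 10 most abundant members held 92.8% of keratin FPKM in vehicle, 95.1% under CDK2i and 95.8% under EZH2i. In bulk tumor RNA, fewer cells of a type and less RNA per cell cannot be told apart, which touches each of these shares.

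**Figure D1:**
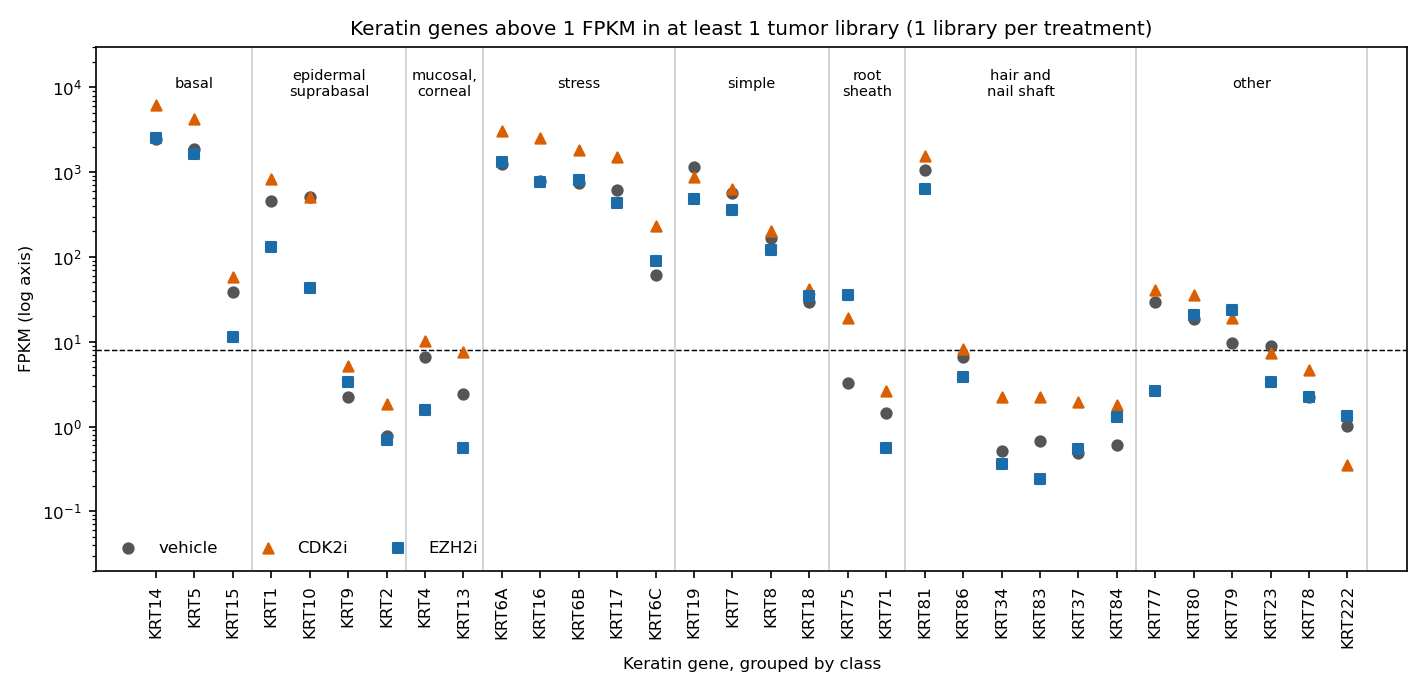
Level of each keratin that passed 1 FPKM in at least 1 library, as FPKM on a log axis, with 1 symbol per tumor library and genes grouped by class. The dashed line is log2 FPKM 3. KRT14 was highest in every library, and the CDK2i triangles lie above the other symbols for all basal and stress keratins.

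In the CDK2i tumor, keratins of the basal layer and all stress keratins were higher than in the vehicle tumor. KRT5, KRT14, KRT6A, KRT6B, KRT6C, KRT16, KRT17 and the hair follicle keratin KRT75 rose by 2.25-fold to 5.74-fold, and no keratin fell. These were 8 of the 22 keratins that could have passed both thresholds, 36.4%, while 3.27% of the 6632 genes that could have passed rose and 8.07% fell (11.3% in all). Of the 25 expressed keratins 23 had a change above 0, the median being 0.96, and KRT19 and KRT23 had changes of −0.37 and −0.27. Among the 11109 expressed genes, 4659 had a change above 0 and 6441 below 0. Of the 8, 6 lay outside their neighbor range, and KRT5 and KRT6B lay inside it. The set of 8 remained when the sums of FPKM without ribosomal protein and mitochondrially encoded genes were made equal, and KRT1, KRT79 and KRT80 joined it with all FPKM sums made equal.

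In the EZH2i tumor the pattern was of another kind. The epidermal suprabasal pair KRT1 and KRT10 fell, as did KRT77, a keratin of sweat gland ducts, the basal keratin KRT15, the simple keratin KRT19 and KRT23. KRT75 and KRT79, both of the hair follicle, rose. Thus 2 of the 20 keratins that could have passed rose, 10%, against 8.93% of the 7414 genes that could have, and 6 fell, 30%, against 4.42% (13.4% of genes passed in all). The median change of the 25 expressed keratins was −0.49, with 9 above and 16 below 0. Among the 11109 expressed genes, 6830 were above and 4272 below 0. The keratin median depended on the processing. It was −0.18 over keratins with a mean log2 FPKM above 3, and −0.039 with the trend over GC content and transcript length removed. Of the 8 that passed, 6 lay outside their neighbor range, and KRT19 and KRT79 lay inside it. KRT19 no longer passed with summed FPKM made equal, or with the trend of change over GC content and transcript length removed, where its change was −0.74.

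**Figure D2:**
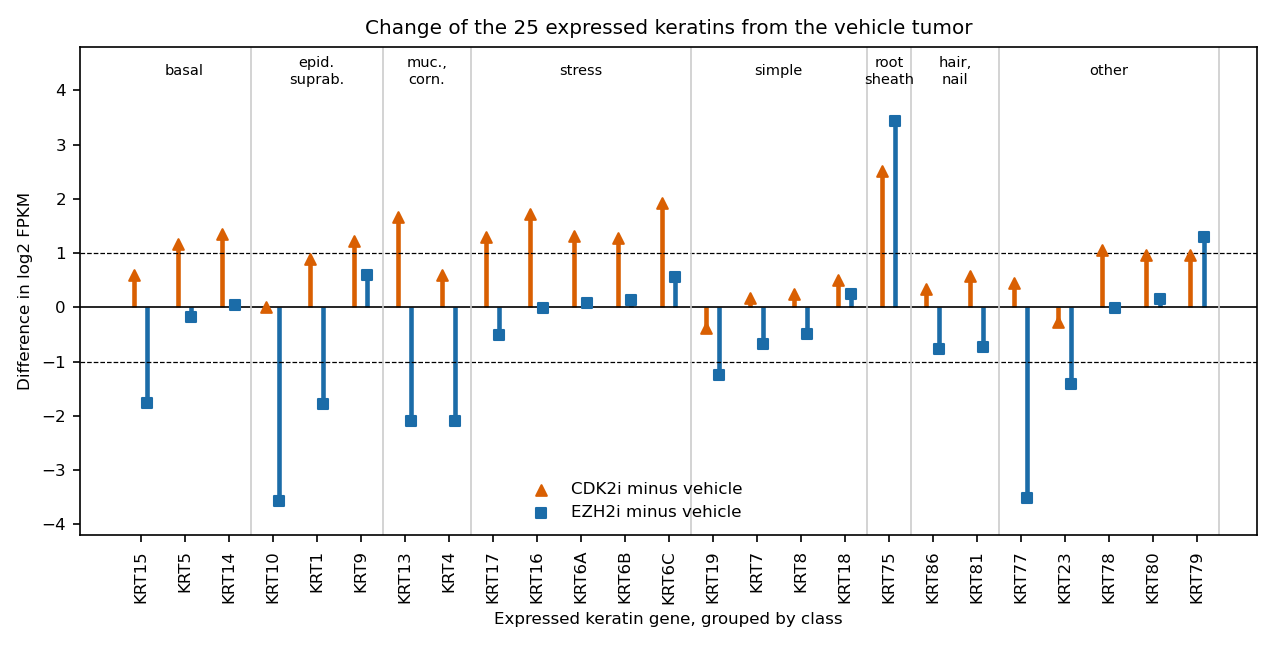
Difference in log2 FPKM from the vehicle tumor for the 25 expressed keratins, grouped by class, with triangles for CDK2i and squares for EZH2i; dashed lines mark a fold of 2 in either direction. All 5 stress keratins lie above the upper line in CDK2i and between the lines in EZH2i, where KRT10 and KRT77 have the lowest values.

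The treated tumors can also be set against each other. From CDK2i to EZH2i 14 keratins fell and 0 rose, out of 21 that could have passed, 66.7% against 6.53% of 7394 genes for falls (24.1% of genes passed in either direction, 17.5% by a rise). Those 14 were KRT1, KRT4, KRT5, KRT6A, KRT6B, KRT6C, KRT10, KRT14, KRT15, KRT16, KRT17, KRT77, KRT81 and KRT86. Their values lay outside the neighbor range for KRT1, KRT4, KRT10, KRT15 and KRT77 and inside it for the other 9. KRT75 was 0.92 higher in EZH2i on the log2 scale and rose with the summed FPKM made equal, with or without ribosomal protein and mitochondrially encoded genes. Each of the 3 comparisons shares a library with each of the others, so their values are not independent of one another.

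Basal keratins came first by amount, with 36.9% of keratin FPKM in vehicle, 42.9% under CDK2i and 44.1% under EZH2i. KRT14, the type I keratin of basal cells (chromosome 17 of GRCh37, 39738531 to 39743147), was at 2458 FPKM in vehicle, 6269 under CDK2i and 2541 under EZH2i. KRT5, its type II partner (chromosome 12, 52908359 to 52914314), was at 1873, 4217 and 1653 FPKM. Both were therefore high in CDK2i and close to vehicle in EZH2i. The change of KRT14 was 1.35 in CDK2i, against an upper neighbor limit of 1.28, and 0.05 in EZH2i. That of KRT5 was 1.17 in CDK2i, within its neighbor limit of 1.29, and −0.18 in EZH2i.

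KRT15, a type I keratin of basal cells and of the hair follicle bulge (chromosome 17, 39669997 to 39678781), did not move with the other basal keratins. It was at 38.9 FPKM in vehicle, 58.8 under CDK2i and 11.4 under EZH2i. Its change of −1.77 in EZH2i lay below the lower neighbor limit of −1.11, with a counting interval from −1.87 to −1.68, while its change of 0.59 in CDK2i did not pass. KRT14 shared 6.05% of its 100-base windows with transcripts of other genes, mostly KRT16, and KRT5 1.64%, while KRT15 shared none.

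Stress keratins held 29.1% of keratin FPKM in vehicle, 37.4% under CDK2i and 35.8% under EZH2i. KRT6A, the most abundant of the KRT6 genes (chromosome 12, 52880960 to 52887041), was at 1236 FPKM in vehicle, 3076 under CDK2i and 1304 under EZH2i. KRT6B was at 745, 1807 and 818 FPKM in the same order, and KRT6C at 61.1, 231 and 90.1 FPKM. KRT6C was the lowest of the 3 genes in each tumor and had the largest change of the class in CDK2i, 1.92, against 1.315 for KRT6A and 1.28 for KRT6B. In EZH2i their changes were 0.56, 0.08 and 0.13, and none passed.

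The KRT6 genes lie side by side on chromosome 12, KRT6C from 52862300 to 52867589 and KRT6B from 52840435 to 52845930, and their coding sequences are nearly the same. Over 1692 coding bases KRT6A and KRT6B differed at 42 positions (97.52% identity), KRT6A and KRT6C at 35 (97.93%), and KRT6B and KRT6C at 25 (98.52%). The stretch from coding base 664 to 723 is shown, since it is where the copies differ at 9 positions within 60 bases and reads can therefore be placed, with the differing positions in capitals:
KRT6A: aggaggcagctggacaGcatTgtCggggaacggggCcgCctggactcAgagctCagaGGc
KRT6B: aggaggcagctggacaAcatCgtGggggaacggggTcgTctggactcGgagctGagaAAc
KRT6C: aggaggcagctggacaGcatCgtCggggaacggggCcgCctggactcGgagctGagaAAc
Elsewhere the copies are alike over longer runs, and 18.2% of the 100-base windows of KRT6A, 24.4% of those of KRT6B and 31.45% of those of KRT6C also stood in transcripts of another gene. How reads that match several genes were counted is not given in the sources used here, so the split between the KRT6 genes is uncertain.

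KRT16, the usual type I partner of KRT6 (chromosome 17, 39766030 to 39772151), was at 778 FPKM in vehicle, 2560.1 under CDK2i and 770.2 under EZH2i. KRT17, a type I keratin of wounded skin and of the hair follicle (39775694 to 39781094), was at 620 FPKM in vehicle, 1519 under CDK2i and 435 under EZH2i. CDK2i was thus the highest library for both. KRT16 changed by 1.72 in CDK2i, past the upper neighbor limit of 1.28, and KRT17 by 1.29, past its limit of 1.18. In EZH2i KRT16 was at a change of −0.01 and KRT17 at −0.51. Of the 5 stress keratins 5 rose in CDK2i with a median change of 1.315, and 0 passed in EZH2i, where the median was 0.08.

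Epidermal suprabasal keratins held 8.13% of keratin FPKM in vehicle, 5.52% under CDK2i and 1.86% under EZH2i. KRT10, the type I keratin that skin cells make on leaving the basal layer (chromosome 17, 38974369 to 38978866), was at 507 FPKM in vehicle, 509.5 under CDK2i and 42.5 under EZH2i. The vehicle and CDK2i tumors were therefore alike and the EZH2i tumor was 11.9-fold below vehicle. The EZH2i change of −3.58 stood at rank 3 from the lowest of 7414 genes, with a lower neighbor limit of −1.635 and a counting interval from −3.65 to −3.50. KRT1, the type II partner (chromosome 12, 53068520 to 53074191), was at 452 FPKM in vehicle, 842 under CDK2i and 131 under EZH2i. Its change was 0.90 in CDK2i, which did not pass, and −1.785 in EZH2i, at rank 46 from the lowest and below the lower neighbor limit of −1.65. KRT9, of palms and soles, was at 2.21, 5.16 and 3.37 FPKM, and KRT2, of the uppermost living layers, at 0.768, 1.85 and 0.689 FPKM, both under the expression minimum in each tumor.

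KRT77 is a type II keratin next to KRT1 (chromosome 12, 53083410 to 53097308) and is known from the ducts of sweat glands. It was at 29.6 FPKM in vehicle, 40.3 under CDK2i and 2.59 under EZH2i, which stand for about 1993, 3098 and 182 fragments. EZH2i was 11.4-fold below vehicle, a change of −3.51 at rank 5 from the lowest of 7414 genes, far under the lower neighbor limit of −1.002. The change of 0.45 in CDK2i did not pass. With KRT1, KRT10 and KRT15 it is 1 of 4 keratins that also fell at a fold limit of 3, and none of the 4 shared a 100-base window with another gene.

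The mucosal pair KRT4 and KRT13, of the esophagus and mouth, was low. KRT4 was at 6.69 FPKM in vehicle, 10.1 under CDK2i and 1.57 under EZH2i, or about 323, 558 and 79 fragments. KRT13 was at 2.40, 7.63 and 0.560 FPKM, or about 117, 426 and 29 fragments. Both were highest in CDK2i and lowest in EZH2i, but KRT13 was under log2 FPKM 3 in each library and KRT4 exceeded it in CDK2i alone. The change of KRT4 from vehicle to CDK2i, 0.60, did not pass, and from CDK2i to EZH2i it fell by 2.69 on the log2 scale. KRT3 of the cornea was at 0.616, 0.811 and 0.221 FPKM. Its partner KRT12 was under 0.5 FPKM throughout, with 1, 15 and 2 fragments.

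Simple keratins held 16.1% of keratin FPKM in vehicle, 7.17% under CDK2i and 10.5% under EZH2i. KRT19, a type I keratin of luminal and duct cells (chromosome 17, 39679869 to 39684560), was at 1144 FPKM in vehicle, 883 under CDK2i and 485 under EZH2i. It was one of the 2 expressed keratins with their highest value in vehicle, the other being KRT23. Its fall of 1.24 in EZH2i stayed within the lower neighbor limit of −1.66. KRT7, a type II keratin of glands and ducts, was at 567, 638 and 357 FPKM, and its changes of 0.17 and −0.67 did not pass. KRT8 was at 169, 200.4 and 121 FPKM and its partner KRT18 at 29.6, 42.1 and 35.1 FPKM, with changes between −0.49 and 0.51. None of the 4 expressed simple keratins passed in CDK2i, where their median change was 0.21. KRT20, of gut and Merkel cells, had 1, 0 and 6 fragments. KRT8 and KRT18 lie on opposite strands and their annotated ends overlap (53290971 to 53343738 and 53342655 to 53346690), and whether counting used the strand is not given in the sources used here.

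KRT75, a type II keratin of the companion layer of the hair follicle (chromosome 12, 52817854 to 52828155), was low in vehicle and higher in both treated tumors. It was at 3.28 FPKM in vehicle, 18.8 under CDK2i and 35.6 under EZH2i, or about 119, 782 and 1352 fragments. CDK2i was 5.74-fold and EZH2i 10.8-fold above vehicle. The change of 2.52 in CDK2i had a counting interval from 2.25 to 2.82 and an upper neighbor limit of 0.88, and stood at rank 32 of 6632 genes. That of 3.44 in EZH2i had an interval from 3.17 to 3.73 and an upper limit of 1.25, and stood at rank 6 of 7414. Both comparisons rest on the same vehicle value of about 119 fragments. The gene lies beside the KRT6 genes but shared no 100-base window with them.

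KRT79, a type II keratin of the hair canal (chromosome 12, 53215192 to 53228095), was at 9.68 FPKM in vehicle, 19.0 under CDK2i and 23.7 under EZH2i. Its change of 1.29 in EZH2i passed but lay just within the upper neighbor limit of 1.31, and its change of 0.97 in CDK2i was just under the fold limit. KRT80, which is found near desmosomes, was at 18.5, 36.0 and 20.7 FPKM, with changes of 0.96 and 0.16. KRT78 was at 2.22, 4.62 and 2.21 FPKM. KRT23 was at 8.82, 7.31 and 3.33 FPKM and fell in EZH2i by 1.40 on the log2 scale, with a counting interval from −1.67 to −1.15 that holds values inside its neighbor limit of −1.35. Of the other hair follicle sheath keratins KRT71, of the inner root sheath, reached the highest value, at 1.45, 2.65 and 0.554 FPKM, and in EZH2i KRT74 was above it at 0.779 FPKM.

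Hair and nail shaft keratins were present mainly as 1 gene. KRT81, a type II keratin of the hair cortex (chromosome 12, 52679697 to 52685318), was at 1054 FPKM in vehicle, 1572 under CDK2i and 639 under EZH2i, among the 6 most abundant keratins of each tumor. Its changes of 0.58 and −0.72 against vehicle did not pass, and it fell by 1.30 on the log2 scale from CDK2i to EZH2i. KRT86 was at 6.58, 8.32 and 3.85 FPKM, with changes of 0.34 and −0.77. The annotated span of KRT86 covers KRT81 on the opposite strand, and 30.3% of the 100-base windows of KRT81 and 27.6% of those of KRT86 stood in another gene, mostly in each other, so the split between them is uncertain. No hair keratin of type I was expressed. The one with the highest value in any library, KRT34, was at 0.511, 2.21 and 0.358 FPKM, or about 14, 69 and 10 fragments. In EZH2i KRT37 was above KRT34 at 0.541 FPKM, as was KRT31 at 0.501 FPKM.

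The remaining keratins were near the limit of detection. Of the 26 keratins that were not expressed, 19 stayed under 1 FPKM in every library and 7 were listed at 0 in at least 1. In 18 of the 26 the highest value was in CDK2i, in 6 in vehicle and in 2 in EZH2i. Some of these highest values rest on 1 or 2 fragments, and CDK2i was the deepest library. The same count was not made over all genes, so it is not read as a result about keratins. KRT83 had 21, 79 and 8 fragments, KRT84 21, 71 and 47, and KRT37 12, 55 and 14, so that CDK2i was the highest of the 3 for each. KRT222 went the other way with 43, 17 and 58 fragments, and 35.0% of its windows stood in another transcript. Without an expression minimum, and with a library listed at 0 entered at its listed value, 25 of the 51 keratins were more than 2-fold higher and 5 more than 2-fold lower in CDK2i than in vehicle. Of 26852 genes 18% were higher and 25.6% lower by the same count, and these counts rest on such low values.

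**Figure D3:**
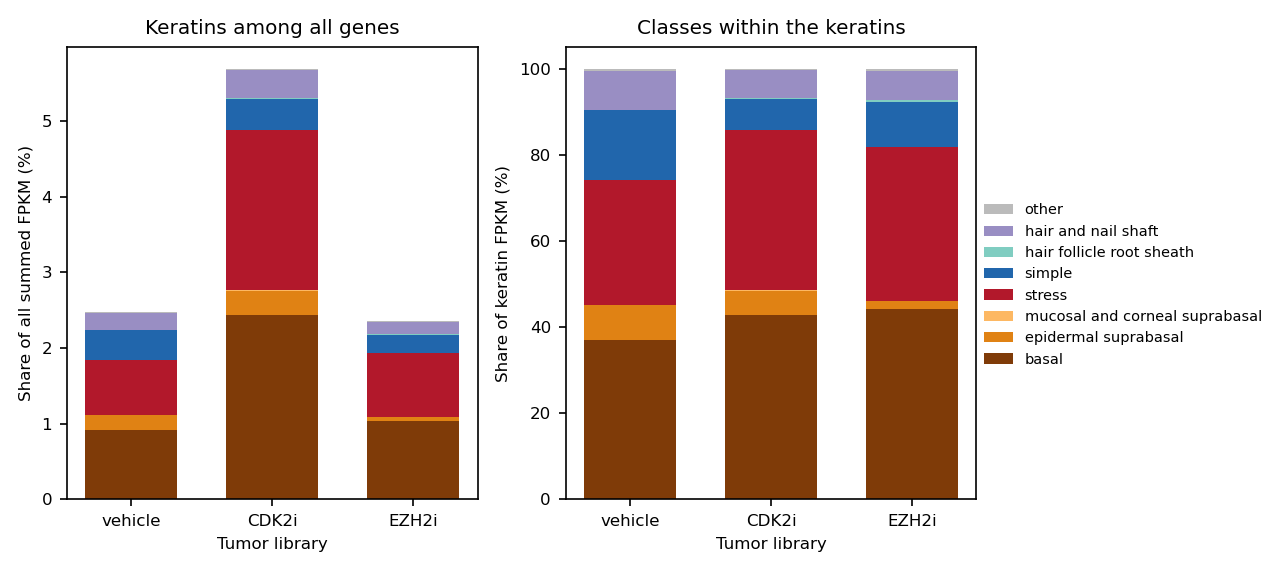
Left, keratins as a percentage of all summed FPKM of each tumor library, stacked by class. Right, the classes as a percentage of keratin FPKM. The keratin share was 5.70% in CDK2i against 2.47% in vehicle and 2.355% in EZH2i, and the epidermal suprabasal share was smallest in EZH2i at 1.86%.

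Because type I and type II keratins are used in equal numbers in a filament, their balance within a library was examined, a value that does not depend on scaling between libraries. Type I keratins summed to 0.896 of the type II keratins in vehicle, 0.932 in CDK2i and 0.832 in EZH2i (ratios of summed FPKM). Both types were thus present in similar amounts in each tumor although single genes differed by orders of magnitude. Without KRT14 and KRT5, the most abundant gene of each type, the ratio was 0.718, 0.6575 and 0.5035 in the same order.

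Within pairs, KRT5 to KRT14 was the steadiest of the high pairs, with a ratio of 0.762 in vehicle, 0.673 in CDK2i and 0.651 in EZH2i. KRT5 to KRT15 was 48.1, 71.8 and 145. For KRT1 to KRT10 the ratio was 0.891, 1.65 and 3.08, so that the partners were near equal in vehicle and KRT1 exceeded KRT10 in both treated tumors. In CDK2i KRT1 was above and KRT10 at its vehicle level, and in EZH2i KRT10 lay further below vehicle than KRT1. KRT6A to KRT16 was 1.59, 1.20 and 1.69, and KRT6B to KRT17 was 1.20, 1.19 and 1.88. KRT8 to KRT18 was 5.73, 4.76 and 3.45, and KRT7 to KRT19 was 0.4955, 0.723 and 0.737. KRT4 to KRT13 was 2.78, 1.33 and 2.81, on few fragments.

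**Figure D4:**
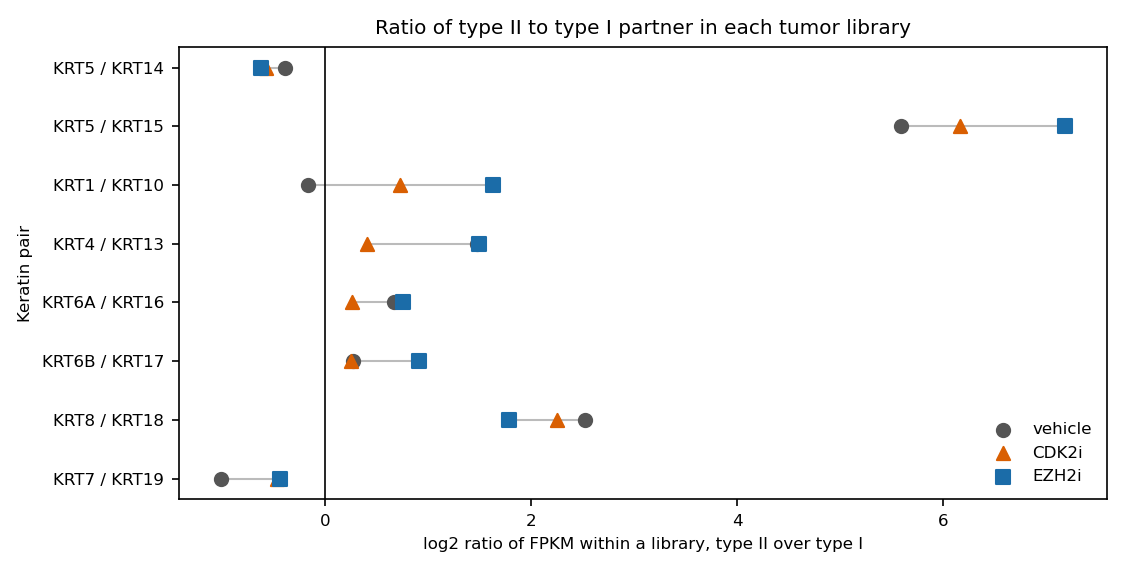
Ratio of FPKM of the type II over the type I partner within each tumor library, as log2, for 8 pairs, with 1 symbol per library. KRT1 over KRT10 runs from a log2 ratio of −0.17 in vehicle to 0.725 in CDK2i and 1.625 in EZH2i, while KRT5 over KRT14 stays between −0.62 and −0.39.

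The keratins form a cluster on each of 2 chromosomes. The chromosome 12 cluster, from 52562780 to 53346690 on GRCh37, holds the 26 type II genes and KRT18, and the chromosome 17 cluster, from 38810917 to 39781094, holds the other 24 type I genes. Of the members 16 were expressed on chromosome 12 and 9 on chromosome 17. In EZH2i KRT75 rose beside KRT6B, KRT6C, KRT6A and KRT5, which did not pass, KRT1 and KRT77 fell side by side, and KRT79 rose next to KRT4, which was at a change of −2.09. On chromosome 17 KRT15 and KRT19 fell as neighbors, while KRT14, KRT16 and KRT17, which follow KRT9, did not pass. In CDK2i the block from KRT75 to KRT5 rose as a whole, as did KRT14, KRT16 and KRT17.

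**Figure D5:**
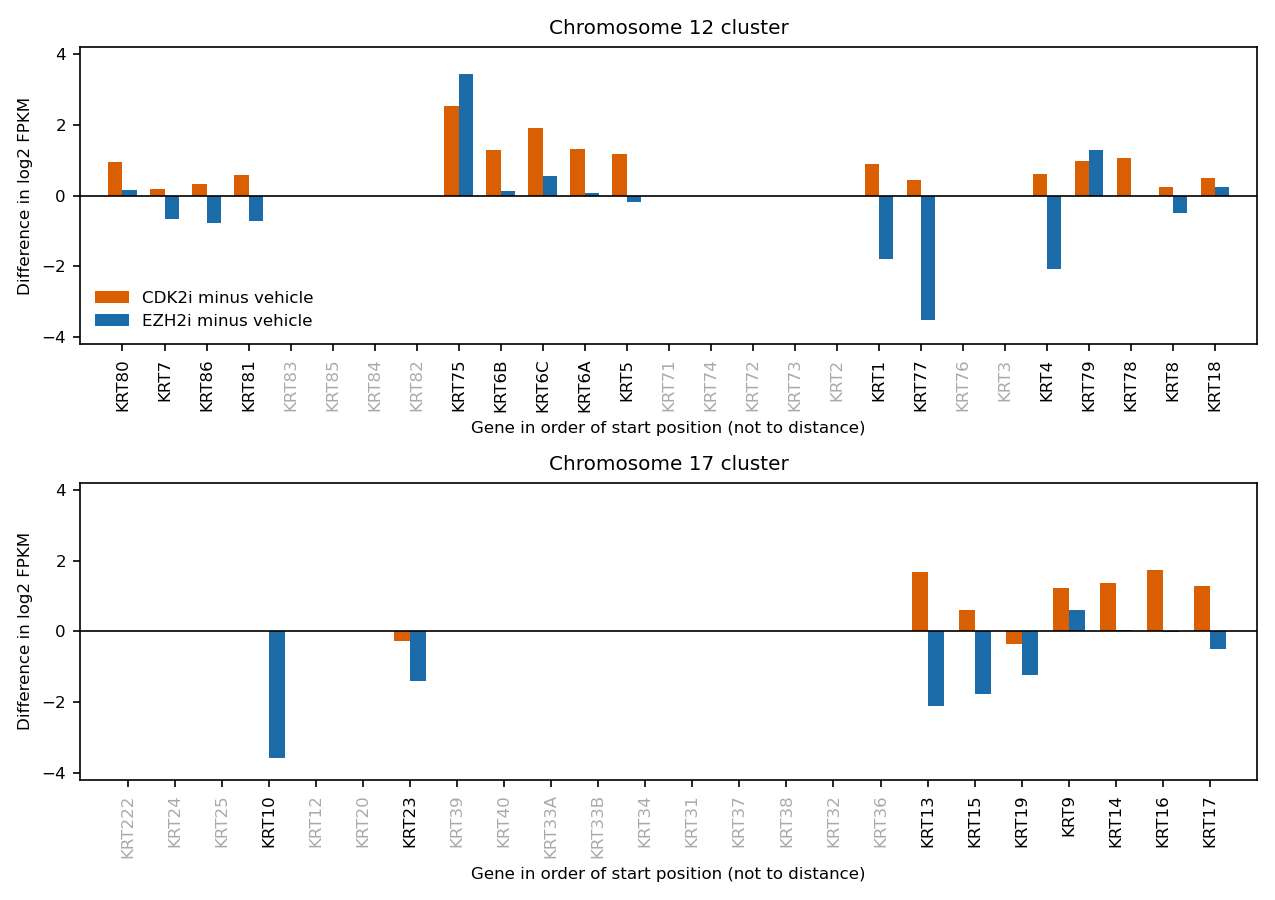
Difference in log2 FPKM from the vehicle tumor along the chromosome 12 and the chromosome 17 keratin cluster, genes in order of position but not to distance, with orange bars for CDK2i and blue bars for EZH2i. Names in grey are keratins that were not expressed and have no bar. The adjacent genes KRT75, KRT6B, KRT6C, KRT6A and KRT5 all have bars above 1 in CDK2i, and KRT75 has the tallest bar in EZH2i at 3.44.

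Promoters from RefSeq (GRCh38.p14) were found for 30 of the 51 keratins. In the 250 bases before the start, read on both strands, TATAAA, the core of the TATA box, was found in 53.3% of the 30 and in 11.1% of 27305 promoters of all genes. Of the 16 keratins with this match 15 were among the 23 with a promoter that were not expressed in these tumors. Of the 7 expressed keratins with a promoter KRT10 alone had it. Only the exact string was counted, so this does not show that the other expressed keratins lack a TATA box. The GC box GGGCGG was found in 13.3% against 42.3%, the KLF motif CACCC in 76.7% against 53.7%, the AP-2 motif GCCNNNGGC in 16.7% against 19.7%, and the AP-1 motif TGANTCA in 0 of 30 against 6.60%. Since 23 of the 30 are of keratins not expressed here, these shares describe mostly such keratins. No promoter was found for KRT14, KRT16, KRT17 or the KRT6 genes, so their motifs are not known from this count. GCCNNNGGC and GGGCGG may overlap in GC-rich runs, and a match is a string of letters and not a bound site. Of the keratins that rose or fell against vehicle, 4 have a promoter in the table, and for these the 100 bases up to the start are shown, 5′ to 3′ on the minus strand of the genome, with matches to these motifs in capitals. KRT10, the keratin with the largest fall in EZH2i, lies at chr17:40822615-40822714, KRT75, with the largest rise in both treated tumors, at chr12:52434372-52434471, KRT79 at chr12:52834312-52834411 and KRT5 at chr12:52520395-52520494:
KRT10: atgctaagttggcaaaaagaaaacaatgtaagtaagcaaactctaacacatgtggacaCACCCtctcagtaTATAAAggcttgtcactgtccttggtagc
KRT75: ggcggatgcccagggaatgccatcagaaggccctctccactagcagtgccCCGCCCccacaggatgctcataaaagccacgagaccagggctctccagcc
KRT79: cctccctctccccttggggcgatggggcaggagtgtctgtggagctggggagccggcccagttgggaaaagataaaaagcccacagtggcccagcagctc
KRT5: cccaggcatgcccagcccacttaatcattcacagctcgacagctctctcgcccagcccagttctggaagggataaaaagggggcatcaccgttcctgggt
In KRT10 a TATAAA begins 29 bases before the start, next to a CACCC. In KRT75 the capitals are a GC box on the other strand. No match falls in the 100 bases of KRT79 or KRT5. The bases of KRT5, KRT75 and KRT79 hold ATAAAA close to where the TATAAA of KRT10 lies, which the exact search did not count.

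Genes that bind keratin filaments or act on keratin promoters were counted from lists. Of 24 genes of desmosomes and linker proteins 18 could have passed in CDK2i, of which 3 rose and 0 fell, and 19 in EZH2i, of which again 3 rose and 0 fell, with median changes of 0.61 and 0.43. Over all genes that could have passed, 3.27% rose and 8.07% fell in CDK2i and 8.93% rose and 4.42% fell in EZH2i, and the median changes of expressed genes were −0.11 and 0.19. JUP, the plakoglobin that links keratin to desmosomal cadherins, was at 248 FPKM in vehicle, 555 under CDK2i and 258 under EZH2i. SFN, the 14-3-3 sigma protein that binds keratins, was at 819, 1800.3 and 832 FPKM, so both followed the stress keratins in being high in CDK2i. DST, the plakin of hemidesmosomes, was at 4.95, 6.36 and 12.7 FPKM, PLEC, plectin, at 92.3, 155 and 190.3 FPKM, and DSC3, a desmosomal cadherin of basal cells, at 57.8, 110.5 and 119 FPKM. Of the 13 other intermediate filament genes 5 could have passed, and LMNB1, a nuclear lamin, rose in EZH2i from 16.2 to 33.7 FPKM.

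Of 31 transcription factors known at keratin genes, 7 rose and 3 fell in CDK2i out of 23 that could have passed, and 3 rose and 3 fell in EZH2i out of 24. The shares over all genes were again 3.27% and 8.07% in CDK2i, and 8.93% and 4.42% in EZH2i, and the EZH2i count of rises lies near its share. The list's median was 0.09 under CDK2i and 0.01 under EZH2i. FOS was at 20.5 FPKM in vehicle, 511 under CDK2i and 37.3 under EZH2i, JUNB at 125, 1461 and 89.8 FPKM, and JUN at 35.4, 254 and 33.5 FPKM. These AP-1 members, early response genes that many stimuli switch on within minutes, were thus high in CDK2i. GATA3, a factor of luminal breast cells, was at 16.5, 3.75 and 6.66 FPKM and fell in both treated tumors. Whether any of these factors acts on a keratin gene in these tumors was not tested.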

How the data were processed

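RNA was isolated from 3 xenograft tumors, 1 library per treatment. Per the submitters' processing notes the authors used CASAVA and STAR with the hg19 build; versions, the counting tool and the handling of mouse reads are not given in the sources used here. The authors deposited log2 FPKM for 29689 symbols, and a value of −9 was read as 0. Columns were matched to samples by the sample descriptions. Positions, exon lengths and transcripts came from GENCODE 44 on GRCh37, to which all 51 keratins matched. Fragment numbers were whole steps of 1 fragment for 25 keratins. For the others they are FPKM times exon length and depth, and are approximate. Where the exon length used here exceeds that of the authors, these numbers are too large and the counting intervals too narrow. Differences of log2 FPKM were taken without a pseudocount. A fold above 2 and a higher value above log2 FPKM 3 were required. The limma p-value of the study was not computed, since 1 library per treatment gives no error. Every keratin above log2 FPKM 3 in 1 library, past the thresholds, or in a pair above log2 FPKM 0 was named, others by class with the highest of each, and of the partner and regulator lists at most 5 genes each. A gene that this rule names is not reported here. KRT12, KRT31, KRT37, KRT74, KRT83 and KRT84 were also named, after their values were seen. The members, classes and lists were chosen with earlier results of these data known. Alternatives were other folds, expression minimums, scalings, pseudocounts and denominators and removal of a cubic trend over GC content and length. The scripts were tested on simulated data and ran in Python 3.11.15 with numpy 2.4.6, pandas 2.3.3, scipy 1.17.1 and matplotlib 3.10.9.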

Additional observations from a re-analysis of the deposited data

How the results depend on the processing

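With 1 library per treatment these values have no replicate check, and the depth of 16.8 to 19.1 M fragments leaves keratins under about 1 FPKM at counts too low to compare. No paired analysis was possible because each group has 1 library. Of 99 alternative values for the counts, medians, shares and ratios of the keratins, 78 stayed near the reported one and 21 moved. Near means equal or within a factor of 1.5, and the cause of the moves was not tested. Only the medians could reverse, since a count, share or ratio has no sign to change, and 0 of the medians did. In CDK2i against vehicle, the 8 keratins that rose became 13 at a fold limit of 1.5 and 3 at a fold limit of 3. They became 13 with an expression minimum of log2 FPKM 1 and 25 with no minimum, where 5 fell in place of 0. The 8 became 12 with each library set to the same median of expressed genes. They became 11 with summed FPKM made equal, and 11 with the GC and length trend removed. In EZH2i against vehicle, the 2 that rose became 1 at a fold limit of 3, 1 with a minimum of log2 FPKM 5 and 4 with no minimum, where 17 fell in place of 6. With no minimum 48 keratins were compared, some on very few fragments. By the same count 22.9% of 26421 genes were higher and 18% lower. The median change of −0.49 in EZH2i became −0.735 with each library set to the same median of expressed genes, −0.24 with summed FPKM made equal, −0.18 over keratins with a mean log2 FPKM above 3 and −0.039 with the GC and length trend removed. From CDK2i to EZH2i, 1 keratin rose in place of 0 at a fold limit of 1.5, with equal sums and with equal sums that leave out ribosomal protein and mitochondrial genes, and 2 rose with no minimum. The 14 that fell became 7 at a fold limit of 3 and 33 with no minimum. They became 20 with each library set to the same median of expressed genes. Over all genes the 483 that fell became 168, 5195 and 1136 in the same order, so these counts moved with those of the whole data. With ribosomal protein and mitochondrial genes left out of the sum, the keratin share was 3.925% in vehicle, 7.383% under CDK2i and 3.245% under EZH2i. With them in the sum it was 2.47%, 5.70% and 2.355%. The type I to type II ratio in EZH2i was 0.5035 in place of 0.832 without KRT14 and KRT5. Of 18 pair ratios tried with a pseudocount of 1, the change of KRT4 over KRT13 in EZH2i reversed from 0.01 to −0.45, and 16 stayed near the reported value. The share of higher genes among all genes past the thresholds was 28.9% in CDK2i, 66.9% in EZH2i and 72.9% between them as deposited. It was 50.7%, 31.8% and 28.5% with centring, 46.8%, 88.7% and 79.4% with equal sums, 17.5%, 72.2% and 84.1% with equal sums that leave those genes out, and 46.9%, 39.2% and 49.4% with the trend removed. Against the deposited scaling, every change moved by 0.18 in CDK2i and −0.25 in EZH2i with centring, by 0.15 and 0.24 with equal sums, and by −0.14 and 0.04 with equal sums that leave those genes out. Over all genes, the expression minimum moved the counts most: in CDK2i 217 genes rose and 535 fell as reported, 486 and 1551 with a minimum of log2 FPKM 1, 105 and 91 with a minimum of log2 FPKM 5 and 4830 and 6873 with none, and in EZH2i 662 and 328 became 1577 and 655, 99 and 163, and 6041 and 4755. With fold limits of 1.5 and 3 they were 699 and 1248 and then 90 and 160 in CDK2i, and 1816 and 894 and then 106 and 80 in EZH2i. With the trend removed they were 271 and 307, and 153 and 237, and with equal sums 1339 rose and 170 fell in EZH2i. No keratin fell in CDK2i under these scalings or with the trend removed.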

Other observations

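Some genes of the keratin loci and of the cornified layer that are no members were read after their values were seen. KRTDAP, a secreted protein of differentiating keratinocytes, was at 281 FPKM in vehicle, 373 under CDK2i and 88.5 under EZH2i, and SPINK5, a protease inhibitor of the granular layer, at 187, 148 and 58.4 FPKM. DMKN was at 221, 250.04 and 98.8 FPKM and CALML5 at 212, 465 and 76.4 FPKM, so all 4 were lowest in EZH2i, as KRT1 and KRT10 were. DSG1 and DSC1, cadherins of the desmosomes of upper layers, had another order, with DSG1 at 7.46, 29.6 and 20.4 FPKM and DSC1 at 2.69, 13.0 and 11.9 FPKM. CASP14, a protease of the cornifying cell, was at 14.8, 53.0 and 21.8 FPKM and IVL, involucrin, at 3.96, 13.7 and 5.36 FPKM, both highest in CDK2i.

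Among the keratin-associated protein genes KRTAP19-1 was at 2.49 FPKM in vehicle, 9.71 under CDK2i and 0.177 under EZH2i, and KRTAP19-5 at 1.03, 3.85 and 0.124 FPKM. Among the pseudogenes KRT16P2, which shares windows with KRT16, was at 1.25, 8.59 and 7.03 FPKM, and KRT8P12 at 11.6, 2.88 and 7.43 FPKM.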
